A study of Mus musculus with 16 samples.

Results

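Small nucleolar RNAs (snoRNAs), the small nuclear RNAs listed with them and the transcripts whose introns carry snoRNAs were followed in protrusions and cell bodies of mouse fibroblasts. The set held every gene of the deposited table whose symbol begins with Snora, Snord, Scarna, Snhg or Rnu, plus Gas5, which came to 38 of 13015 genes. By symbol these were 12 box H/ACA snoRNAs, 14 box C/D snoRNAs (the U3 gene Rnu3a included), the U1 small nuclear RNA gene Rnu1a1, 10 host transcripts (Gas5, Snhg1, Snhg3, Snhg4, Snhg5, Snhg6, Snhg7, Snhg9, Snhg12 and Snhg18) and Snhg7os, an opposite-strand transcript kept apart from the hosts. The table lists a gene when at least 1 library passed a low cutoff, so 12 of 40 annotated Snora genes, 13 of 98 Snord genes, 2 of 17 Rnu genes and 0 of 9 Scarna genes were in it, and the other genes of these names were not analysed here.

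All cells were NIH/3T3, an established mouse fibroblast line, transfected 72 h earlier with a control siRNA (siControl) or with siRNA against Apc (siAPC), the mouse gene of the tumor suppressor adenomatous polyposis coli. In all groups serum-starved cells sat for 2 h on filters with 3.0 µm pores, met lysophosphatidic acid from the lower chamber for 1 h and were fixed in 0.3% paraformaldehyde for 10 min. Material below the filter was the protrusion fraction (Ps) and material above it the cell body fraction (CB), and the 2 fractions of the 2 siRNAs made 4 groups of 4 libraries each, named siControl CB or Ps and siAPC CB or Ps. CB came from the same kind of filter as Ps but from fewer filters, and it holds the nucleus with all other RNA left above the pores, so it is not a nuclear fraction. Values are deposited log2 CPM, that is, the log2 of reads in proportion to the scaled size of the library, and read numbers are the whole reads recovered from them.

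snoRNAs guide chemical changes of other RNAs, above all ribosomal RNA, in the nucleolus. Box C/D snoRNAs bind the methyltransferase fibrillarin and guide 2′-O-methylation, while box H/ACA snoRNAs bind the pseudouridine synthase dyskerin and guide pseudouridylation. Most vertebrate snoRNAs are cut out of introns of a host transcript. Thus 1 transcription unit yields a small RNA that goes to the nucleolus and a spliced RNA that leaves the nucleus. Hosts are often messages of the translation machinery or noncoding RNAs such as Gas5 and the Snhg family, many of which begin with a C and a pyrimidine run and are degraded by nonsense-mediated decay.

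The members printed here are those whose difference between fractions was largest or stood apart from the rest. The sequences are GENCODE M21 transcripts (GRCm38, the assembly also called mm10), 5′ to 3′, and capitals mark TGATGA within the first 30 bases and CTGA within the last 20 bases of box C/D members, or ACA within the last 8 bases of box H/ACA members. Snord104 (chr11:106500993-106501062, plus strand), with no host annotated on its strand, had the most reads of all the small RNAs. Snord37 (chr10:81178950-81179013, plus strand, in an intron of Eef2) had the largest difference between fractions in siControl, though it was listed through its CB libraries alone. Snord49a (chr11:62603450-62603521) and Snord49b (chr11:62603079-62603150), both on the plus strand in introns of the noncoding RNA 2410006H16Rik, are printed because 54 of 78 aligned positions (69.2%) were identical while their values differed.
Snord104: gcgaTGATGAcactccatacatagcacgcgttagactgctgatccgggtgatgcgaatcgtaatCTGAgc
Snord37: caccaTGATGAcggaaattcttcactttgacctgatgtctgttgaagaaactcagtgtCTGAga
Snord49a: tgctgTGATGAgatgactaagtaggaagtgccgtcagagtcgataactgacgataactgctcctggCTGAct
Snord49b: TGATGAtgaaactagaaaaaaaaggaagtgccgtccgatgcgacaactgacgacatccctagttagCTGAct

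Among the box H/ACA members, Snora73a (chr4:132352775-132352979, minus strand, in an exon of Snhg3) and Snora73b (chr4:132352322-132352526, minus strand, in an intron of Snhg3) are near-copies, identical at 198 of 205 aligned positions (96.6%), while 7.1% of the 50-base windows of either occur in the other. Snora31 (chr14:75847905-75848034, plus strand, in an intron of Tpt1) is printed as the only small RNA called between siRNAs, and Snora7a (chr6:115807975-115808114, minus strand, inside an exon of a coding Rpl32 transcript) as a box H/ACA member higher in Ps of siAPC cells.
Snora73a: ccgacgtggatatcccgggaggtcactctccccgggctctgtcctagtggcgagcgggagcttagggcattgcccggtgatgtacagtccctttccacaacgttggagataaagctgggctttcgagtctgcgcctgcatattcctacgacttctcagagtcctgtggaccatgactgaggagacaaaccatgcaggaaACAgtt
Snora73b: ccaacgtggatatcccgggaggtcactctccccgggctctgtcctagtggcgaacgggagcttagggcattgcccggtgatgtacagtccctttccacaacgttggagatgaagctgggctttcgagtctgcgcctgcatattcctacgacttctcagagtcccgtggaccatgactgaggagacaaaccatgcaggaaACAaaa
Snora31: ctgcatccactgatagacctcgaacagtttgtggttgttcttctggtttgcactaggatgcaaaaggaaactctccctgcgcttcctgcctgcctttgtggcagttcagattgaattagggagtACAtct
Snora7a: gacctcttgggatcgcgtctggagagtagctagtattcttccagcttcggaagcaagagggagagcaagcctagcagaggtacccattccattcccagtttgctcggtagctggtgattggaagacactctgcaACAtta

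The letters searched were TGATGA (box C) and CTGA (box D) on the transcript strand, and 10 of 14 box C/D members held the former and 14 of 14 the latter, against 22.0% and 35.4% of all 1507 annotated snoRNA transcripts. ACA stood in the last 8 bases of 12 of 12 box H/ACA members, against 46.8% of those transcripts, which mix both classes. The starts of the hosts were read from RefSeq promoters (GRCm38.p6) as 40 bases, 20 on either side of the start, and capitals mark each C followed by at least 4 further C or T bases on the transcript strand. The 8 host genes with an entry had 9 listed starts, since Gas5 had 2. Such a run was present at 7 of the 9 starts (77.8%), against 45.9% of 32851 promoters in the same window. The starts without a run were that of Snhg1 and 1 of the 2 of Gas5 (chr1:161034581-161034620). The 4 windows printed are those of the host with the most reads (Gas5, chr1:161035146-161035185), the host with the smallest error (Snhg18, chr15:32244643-32244682, minus strand), the host that went the other way (Snhg3, chr4:132353667-132353706, minus strand) and the host gene without a run (Snhg1, chr19:8723467-8723506), with Gas5 and Snhg1 on the plus strand.
Gas5: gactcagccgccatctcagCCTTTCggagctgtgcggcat
Snhg18: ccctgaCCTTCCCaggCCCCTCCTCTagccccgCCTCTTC
Snhg3: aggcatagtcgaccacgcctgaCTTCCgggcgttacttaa
Snhg1: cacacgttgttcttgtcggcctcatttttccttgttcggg

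The libraries held 13466225 to 20296087 reads in listed genes. Apc, the check of the siRNA, had 73, 102, 269 and 83 reads in siControl CB and 31, 52, 39 and 29 in siAPC CB, and it had 142, 162, 148 and 167 reads in siControl Ps and 48, 55, 69 and 41 in siAPC Ps. The siAPC minus siControl difference of Apc was -1.67 ± 0.25 (SE) in CB and -1.84 ± 0.25 in Ps on the log2 scale, with adjusted p of 0.000142 and 3.11e-05. Of 7 fibroblast markers, Col1a1, Col1a2, Col3a1, Pdgfra, Pdgfrb and Vim averaged 5.29 log2 CPM or more in every group while Thy1 lay between -2.31 and -1.13. Of 10 markers of epithelial, leukocyte and endothelial cells, Epcam, Krt18, Ptprc, Cd3e, Cdh5 and Kdr were not listed. The other 4 were listed, with group means of 2.70 to 2.99 log2 CPM for Krt8, 1.93 to 2.48 for Cd68, 0.94 to 1.15 for Cdh1 and -2.24 to -1.02 for Pecam1. Their part in the results was not tested. In 4 libraries (siControl CB replicate 3, siControl Ps replicate 2, and replicate 2 of either siAPC fraction) gene levels ran with GC content in the opposite direction to most others (Spearman -0.645 to -0.525 over 9878 genes, against -0.039 to 0.535), and 3 nuclear long noncoding RNAs stood with the small RNAs, since Malat1 (-2.77), Neat1 (-1.76) and Kcnq1ot1 (-1.38) were all lower in Ps than in CB of siControl and again in siAPC (-2.49, -1.49 and -1.51). Fewer cells and less RNA per cell cannot be told apart in such fractions. No label says whether libraries of a group came from separate cultures, while the study's results text calls them independent replicates.

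Depth set the limits for the small RNAs. Of the 27, only Snord104 reached 100 reads in any library, and 13 had a mean of at least 10 reads over the 16 libraries. A gene with 3 reads sits between -2.73 and -1.80 on the log2 scale, depending on the library. The hosts were far deeper, from a mean of 102 reads for Snhg3 to 5430 for Gas5, except Snhg9 with 12.6. The labels named a total RNA kit, while the methods describe total RNA libraries but name an mRNA kit. Whether the kit retains RNAs this short was not tested.

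The first comparison asked which of these RNAs were unequal between protrusions and cell bodies of control cells. Ps was lower than CB for 16 small RNAs (8 box H/ACA and 8 box C/D), higher for Snord104 and Rnu1a1, and not called for 9, with a median difference over the 27 of -1.42 on the log2 scale. Of the 10 hosts 7 were higher in Ps, Snhg3 was lower and Snhg5 and Snhg9 were not called, with a median of 0.70. Among these 10, Snhg3, Snhg9, Snhg12 and Snhg18 carry listed small RNAs. Calls were made by limma at an adjusted p below 0.05, and among all genes tested 29.1% were called higher and 31.2% lower in Ps, with a median of -0.001. Among the 2723 genes with a mean below 1 log2 CPM, the range of most of the small RNAs, 505 were called higher, 418 were called lower, and the median was 0.13.

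How a small RNA came to be listed bears on that count. At a cutoff of 0.5 CPM of listed reads, inferred from the deposited values, 10 of the 27 passed in CB libraries alone and Rnu3a in Ps libraries alone. An RNA low in 1 fraction was thus in the table only because it was high in the other. The 10 listed through CB alone were Snora2b, Snora16a, Snora34, Snora41, Snora73a, Snord14a, Snord35b, Snord37, Snord55 and Snord123. For them a lower value in Ps follows in part from how they were listed, so their differences and adjusted p between fractions are given as a description and support nothing. They held 7 of the 16 calls in siControl and 6 of the 11 in siAPC. Of the 16 that passed in both fractions, 9 were lower and 2 higher in Ps of siControl, with a median of -1.23. Libraries of either siRNA counted for this cutoff. Snord49a, Snord65 and Snora78, called lower in siControl, passed in Ps through siAPC libraries alone. Rnu1a1, called higher there, passed in CB through siAPC libraries alone. The siControl calls of these RNAs thus keep part of the same limit. All 10 hosts passed in both fractions.

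**Figure D1:**
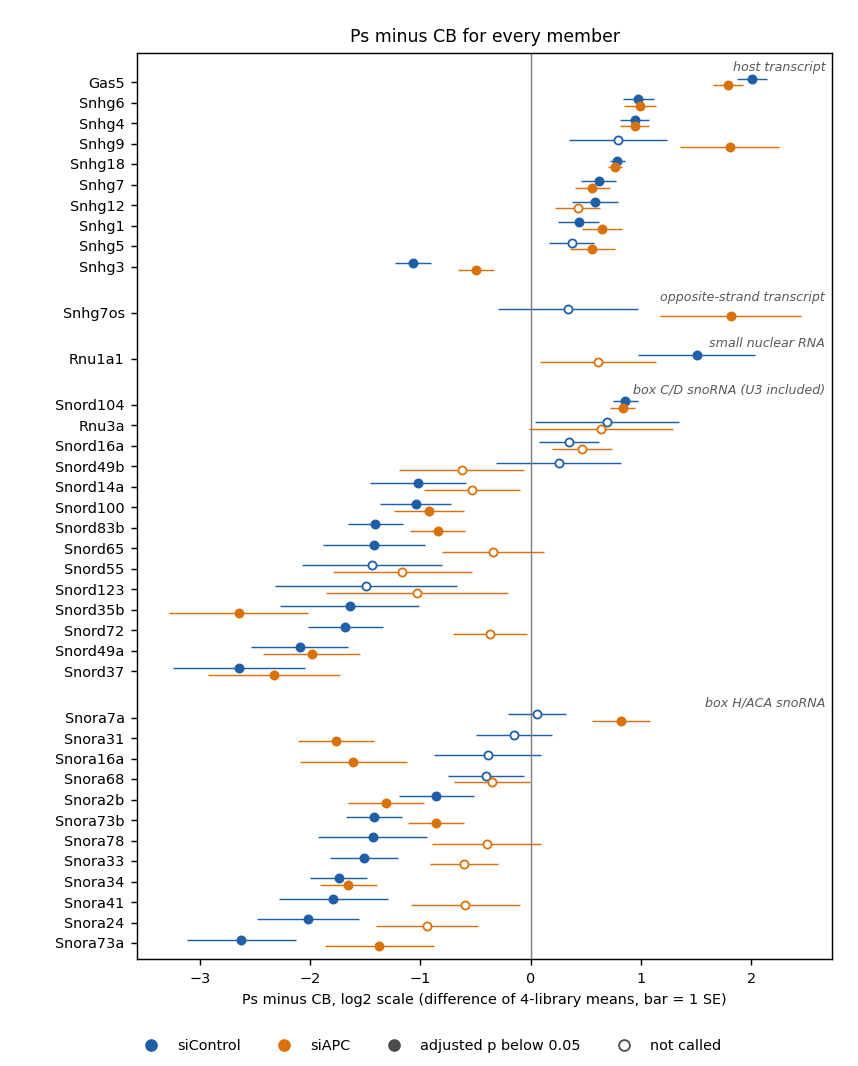
Ps minus CB on the log2 scale (x axis) for the 38 members (y axis), grouped by class, as the difference between means of 4 libraries with a bar of 1 SE, for siControl and siAPC; filled points had an adjusted p below 0.05. All host points except those of Snhg3 lie right of 0 and most snoRNA points lie left of it, with Snord104 at 0.86 and 0.83.

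Of the box C/D members, which guide methylation, Snord37, listed through CB alone, had 6, 6, 9 and 13 reads in the 4 siControl CB libraries and 1, 0, 0 and 2 in siControl Ps. Every CB library held more reads than any Ps library. The fitted difference was -2.65 ± 0.60 (SE, adjusted p = 0.000835), and the ratio of the summed reads, 3 in Ps and 34 in CB, was 0.123 per effective library size with an exact 95% binomial interval of 0.0240 to 0.392 that covers counting error only. Snord49a, at more reads, had 26, 15, 30 and 25 in siControl CB and 3, 6, 7 and 1 in siControl Ps, again without overlap (-2.09 ± 0.44, adjusted p = 0.000412). Its related neighbour Snord49b, in the same host, had 1, 5, 6 and 7 reads in CB and 3, 7, 5 and 1 in Ps, where the groups overlapped and the difference was 0.25 ± 0.56 (adjusted p = 0.717).

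The better measured box C/D members Snord83b and Snord100 were also lower in Ps. Snord83b had 25, 18, 35 and 34 reads in siControl CB and 6, 8, 7 and 7 in siControl Ps (-1.41 ± 0.25, adjusted p = 7.67e-05), and Snord100 had 28, 24, 43 and 28 against 8, 12, 10 and 11 (-1.04 ± 0.32, adjusted p = 0.00849). Neither pair of groups overlapped. Snord72, in an intron of Rpl37, had 19, 20, 28 and 27 reads against 3, 7, 5 and 5 (-1.68 ± 0.34, adjusted p = 0.000279).

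Snord104 went the other way. Its 4 siControl CB libraries held 137, 140, 202 and 167 reads, or 3.09 ± 0.07 log2 CPM (SD, n = 4), and the 4 siControl Ps libraries held 230, 147, 249 and 221, or 3.95 ± 0.26, with Ps replicate 2 the lowest at 3.59. Once scaled, every Ps library lay above every CB library, with a difference of 0.86 ± 0.11 (SE, adjusted p = 2.6e-06). Snord104 thus stood beside the hosts, and it is also the small RNA with the most reads. For it, as for Rnu3a, GENCODE M21 annotates no host gene on its strand. Whether its reads came from a host missing in that annotation was not tested. Snord16a, which lies in a retained intron of Rpl4, had 14, 13, 18 and 13 reads in CB and 16, 11, 14 and 12 in Ps, a difference of 0.35 ± 0.27 that was not called (adjusted p = 0.282). Rnu3a, the U3 RNA of ribosomal RNA cleavage, had 2 to 7 reads in siControl CB and 2 to 9 in siControl Ps (0.69 ± 0.65, adjusted p = 0.373), and it was not called.

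Among the box H/ACA members, which guide pseudouridylation, Snora73b had the most reads. It had 33, 52, 66 and 59 in siControl CB and 16, 8, 20 and 12 in siControl Ps, and the groups did not overlap (-1.42 ± 0.25, adjusted p = 8.49e-05). Its near-copy Snora73a, listed through CB alone, had 5, 11, 14 and 16 reads against 0, 1, 1 and 2 (-2.62 ± 0.50, adjusted p = 0.000149), and the ratio of 4 to 46 summed reads was 0.122 with an exact 95% binomial interval of 0.0320 to 0.333. The Snora73 RNAs, also known as U17, act in ribosomal RNA cleavage. How the counting treated reads from the windows they share was not tested.

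Snora24 had 24, 22, 36 and 26 reads in siControl CB and 8, 5, 7 and 1 in siControl Ps (-2.02 ± 0.46, adjusted p = 0.000904). Snora34 had 21, 24, 36 and 21 against 4, 6, 5 and 5 (-1.74 ± 0.26, adjusted p = 1.11e-05) and Snora41 had 5, 10, 13 and 7 against 0, 2, 3 and 2 (-1.79 ± 0.49, adjusted p = 0.00411). Both were listed through CB alone. For all 3 each CB library was above each Ps library. In Snora34, 48.3% of the 50-base windows also occur in the microRNA gene Mir1291, and in Snora41 34.9% occur in Gm23723. Whether these genes lie within the snoRNA's own locus was not tested.

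Snora7a and Snora68, the other box H/ACA members with the most reads, were not called in siControl. Snora7a had 25, 21, 21 and 29 reads in CB and 15, 29, 13 and 17 in Ps (0.06 ± 0.26, adjusted p = 0.872), and Snora68 had 24, 20, 32 and 35 against 19, 19, 10 and 12 (-0.41 ± 0.35, adjusted p = 0.320). In both the groups overlapped. Snora31, in an intron of Tpt1, and Snora16a, in an exon of Snhg12, were not called either (-0.15 ± 0.34 and -0.39 ± 0.49).

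The remaining calls of small RNAs lower in Ps of siControl were Snora33 (-1.51 ± 0.31, adjusted p = 0.000333), Snora78 (-1.43 ± 0.49, adjusted p = 0.0177), Snora2b (-0.86 ± 0.34, adjusted p = 0.0371), Snord65 (-1.42 ± 0.46, adjusted p = 0.0123), Snord35b (-1.64 ± 0.63, adjusted p = 0.0315) and Snord14a (-1.03 ± 0.44, adjusted p = 0.0492). Snora2b, Snord35b and Snord14a were listed through CB alone and also lost the call with an offset of 2 reads (adjusted p of 0.0743, 0.0796 and 0.0931). Apart from Snora33 these lost the call when 1 library was left out. That of Snora78 was lost without siControl Ps replicate 3 (adjusted p = 0.0760), that of Snord65 without siControl Ps replicate 4 (0.0524), that of Snora2b without siControl CB replicates 3 or 4 or siControl Ps replicates 2 or 3 (0.0586 to 0.137), and that of Snord35b without siControl CB replicates 3 or 4 or siControl Ps replicates 1 or 3 (0.0661 to 0.112). Snord14a lost it without any 1 of 12 libraries (0.0519 to 0.172), that is, all but siControl CB replicate 4, siControl Ps replicate 2 and siAPC Ps replicates 2 and 3. Snord55 (-1.44 ± 0.63, adjusted p = 0.0566) and Snord123 (-1.49 ± 0.82, adjusted p = 0.125) were not called. Snord123 had 11, 0, 13 and 8 reads in siControl CB and 2, 1, 1 and 0 in siControl Ps. Without siControl CB replicate 2, its library with 0 reads there, the difference was -2.56 ± 0.61 and was called (adjusted p = 0.00156). Snord55 was called without siControl CB replicate 3, siControl Ps replicate 4 or siAPC CB replicate 2 (adjusted p of 0.0460, 0.0363 and 0.0431).

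Rnu1a1, the U1 RNA that recognises the start of introns in splicing, was called higher in Ps of siControl with 6, 7, 1 and 3 reads in CB and 16, 7, 5 and 6 in Ps (1.50 ± 0.53, adjusted p = 0.0191). The groups overlapped, and 100% of its 50-base windows also occur in 30 other annotated genes, so the reads cannot be assigned to this copy with any certainty. Without replicate 3 of siControl CB the adjusted p was 0.0801, and without replicate 1 of siControl Ps it was 0.0840.

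The host transcripts were led by Gas5, a noncoding RNA that accumulates when growth stops (chr1:161034422-161038539). Its siControl CB libraries held 3119, 2938, 4200 and 3037 reads, or 7.46 ± 0.08 log2 CPM (SD, n = 4), and its siControl Ps libraries held 11832, 10059, 8288 and 8235, or 9.46 ± 0.39. The lowest Ps library was well above the highest CB library, and the difference was 2.01 ± 0.14 (SE), 4.02-fold, with an adjusted p of 5.23e-10. Gas5 alone accounted for 189 ± 15 CPM of listed reads in CB and 629 ± 146 in Ps (SD, n = 4).

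Snhg6 and Snhg4 followed, with no overlap between fractions. Snhg6 had 299, 339, 387 and 362 reads in siControl CB and 586, 543, 413 and 434 in siControl Ps (0.98 ± 0.14, adjusted p = 7.83e-06), while Snhg4 had 239, 199, 307 and 276 against 426, 346, 361 and 276 (0.94 ± 0.13, adjusted p = 5.15e-06). Snhg18, which holds Snord123 (chr15:32240565-32244662), had the smallest error of the set, with 6.36 ± 0.12 log2 CPM in CB and 7.15 ± 0.08 in Ps (SD, n = 4) and a difference of 0.79 ± 0.06 (SE, adjusted p = 5.84e-09). Snhg7 (0.62 ± 0.16, adjusted p = 0.00236), Snhg12 (0.58 ± 0.21, adjusted p = 0.0203) and Snhg1 (0.44 ± 0.18, adjusted p = 0.0483) were higher by less.

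The calls of Snhg12 and Snhg1 were the least firm. In both, the Ps libraries numbered 1 and 2 were higher than those numbered 3 and 4, and the fractions overlapped. The adjusted p of Snhg1 was 0.189 without replicate 1 and 0.185 without replicate 2 of siControl Ps, 0.0756, 0.109 and 0.0765 without replicates 2, 3 and 4 of siControl CB, and 0.0539 to 0.0566 without any 1 of the 4 siAPC CB libraries or, at 0.0547, siAPC Ps replicate 1. With voom weights it was 0.0551, with the prior without a trend 0.0884 and with the 4 GC-trend libraries left out 0.269. That of Snhg12 was 0.1 and 0.0800 without siControl Ps replicates 1 and 2, 0.0636 and 0.0545 without siControl CB replicates 3 and 4, and 0.189 with the 4 GC-trend libraries left out. Scaling to total listed reads in place of the deposited scaling moved the median of all genes by -0.30 in this comparison and left 4 of the 10 hosts called higher, with Snhg12, Snhg1 and Snhg7 no longer called (adjusted p of 0.218, 0.524 and 0.0600).

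Snhg3 was the only host lower in Ps. It had 130, 113, 199 and 164 reads in siControl CB and 43, 56, 54 and 50 in siControl Ps, without overlap (-1.07 ± 0.16, adjusted p = 1.63e-05). Its snoRNAs Snora73a and Snora73b were lower too, and the coding gene Rcc1, whose introns span both on the same strand, did not differ detectably (-0.04, adjusted p = 0.755). Snhg5 (0.37 ± 0.20, adjusted p = 0.120) and Snhg9 (0.79 ± 0.45, adjusted p = 0.134) were not called, and Snhg9 had only 5 to 18 reads per siControl library. Without 1 library Snhg5 (0.57 without siControl Ps replicate 3, adjusted p = 0.0135) and Snhg9 (1.09 without siControl Ps replicate 4, adjusted p = 0.0488) were called higher.

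Symbols decided which hosts were counted here. A further 4 Snhg genes are in the table under older symbols and were outside the rule, and all 4 were lower in Ps of siControl, namely Snhg15, listed as Gm11974 (-0.31, adjusted p = 0.0110), Snhg16, listed as 1810032O08Rik (-0.64, adjusted p = 8.85e-05), Snhg17, listed as 9430008C03Rik (-1.82, adjusted p = 6.04e-10), and Snhg20, listed as 2810008D09Rik (-1.32, adjusted p = 3.7e-08). In siAPC Snhg16 (-0.52), Snhg17 (-1.43) and Snhg20 (-0.44) were lower and Snhg15 was not called (-0.20, adjusted p = 0.0840). The family as a whole thus held members on both sides.

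The pairs of small RNA and host put both readings of 1 transcription unit side by side. Of the 27 small RNAs 25 lay inside a gene on the same strand, in 20 different genes when Snora73a and Snora73b are placed in Snhg3 and not in the overlapping Rcc1, and 23 pairs with 18 hosts had both partners listed. In siControl the Ps minus CB difference of the small RNA was below that of its host in 23 of 23 pairs, by a median of 2.26 and between 0.36 and 3.05 log2 units. Over the 10 pairs whose small RNA had a mean of at least 10 reads, 10 of 10 went this way with a median of 1.91. Pairs in 1 host share that host's value, and no test was made of this count. The 10 small RNAs listed through CB alone are all among the 23, and Snora34 is among the deeper pairs. Their gaps follow in part from how they were listed and support nothing.

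**Figure D2:**
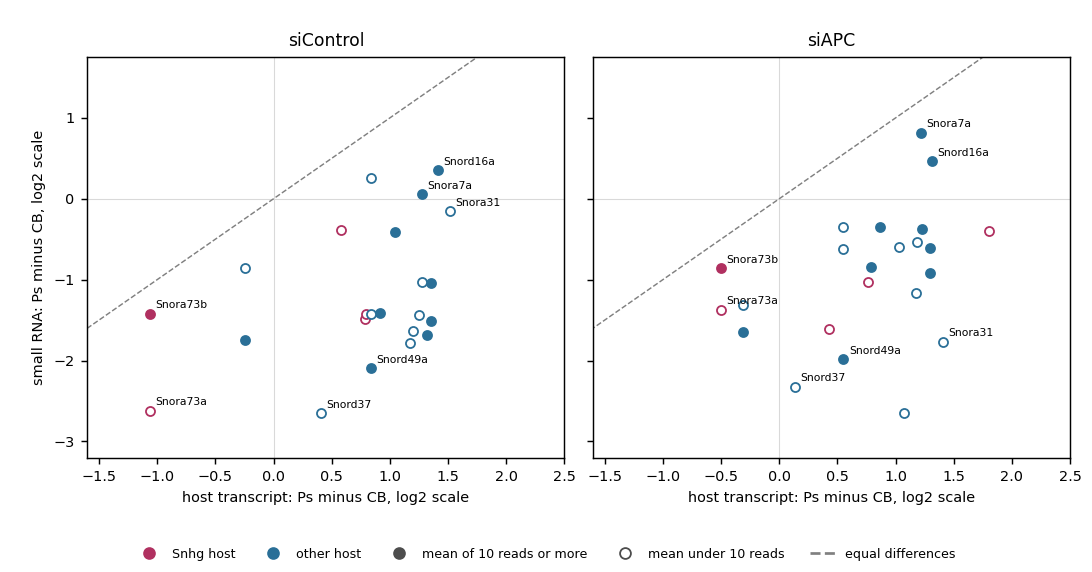
Ps minus CB of the host transcript (x axis) against that of the small RNA inside it (y axis), both on the log2 scale, for 23 pairs in siControl (left) and siAPC (right), with a dashed line where both are equal; colour separates Snhg from other hosts, and open points have under 10 reads on average. Every point lies below the line, and Snora73b, at 0.36 below its host in either siRNA, is the closest to it in both panels. The points include the 10 small RNAs listed through CB alone.

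Most of those hosts are messages of the translation machinery. Of the 15 hosts that were not members, Rcc1 included, 13 were higher in Ps of siControl, beside 29.1% of all genes, and Kansl2, which carries Snora34 and Snora2b, was lower (-0.25, adjusted p = 0.00813). The ribosomal protein messages Rps12 (1.35), Rpl37 (1.32), Rpl3 (0.92) and Rpl32 (1.27) were higher, as was Tpt1 (1.52), while their small RNAs Snora33 (-1.51), Snord72 (-1.68) and Snord83b (-1.41) were lower and Snora7a and Snora31 were not called. Eef2, the message with the most reads among the hosts, differed by 0.40 (adjusted p = 0.00377) and its Snord37 by -2.65. The widest gap was that of Snord37, listed through CB alone, and the narrowest that of Snora73b, whose host Snhg3 was itself lower in Ps. Among small RNAs listed through both fractions the widest was that of Snord72 (-2.995).

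In 10 of the 23 pairs the annotation places the small RNA inside an exon of a host transcript, most often one annotated as a retained intron, and in the other 13 it lies in an intron. How reads that overlap both genes were counted, and whether strand was used, is not given in the sources used here.

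**Figure D3:**
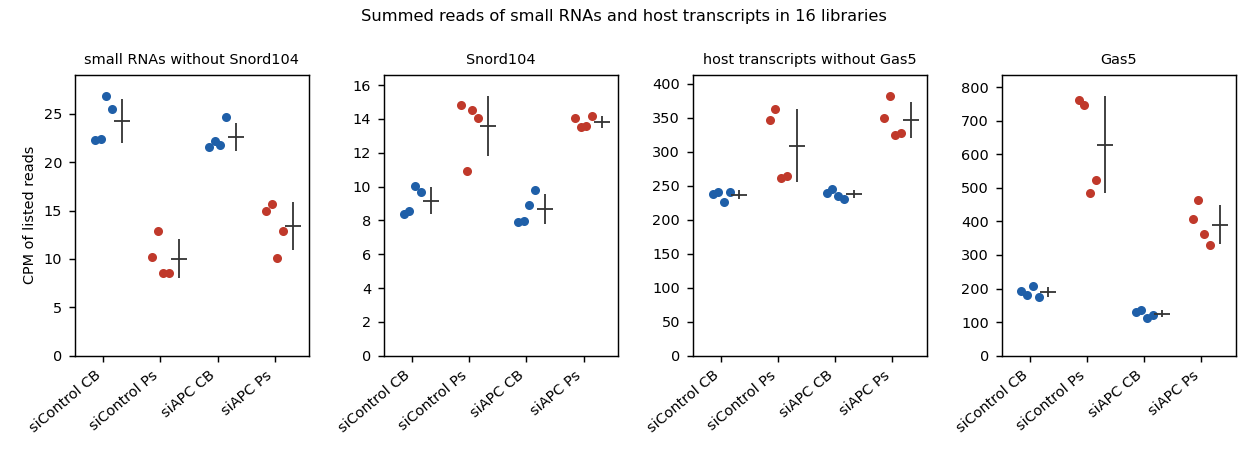
CPM of listed reads (y axis, from 0) in each of the 16 libraries by group (x axis), for the small RNAs without Snord104, Snord104, the hosts without Gas5, and Gas5; points are libraries and bars are the mean with 1 SD. The small RNAs fall from 22.3 to 26.9 in siControl CB to 8.52 to 12.9 in siControl Ps, a sum that includes 10 listed through CB alone, while the other 3 panels are higher in Ps.

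As sums, the small RNAs other than Snord104 took 24.3 ± 2.3 CPM of listed reads in siControl CB and 10.0 ± 2.0 in siControl Ps (SD, n = 4), and 22.6 ± 1.5 and 13.4 ± 2.5 in siAPC CB and siAPC Ps. That sum includes the 10 small RNAs listed through CB alone. Over the 15 listed through both fractions, Snord104 left out, it was 18.4 ± 1.6 in CB and 8.21 ± 1.79 in Ps of siControl, and 16.6 ± 1.3 and 11.2 ± 2.1 with siAPC, a sum added after seeing the data. The hosts other than Gas5 took 236 ± 7 in siControl CB and 309 ± 54 in siControl Ps, and 238 ± 6 and 346 ± 27 with siAPC. CB and Ps libraries did not overlap in any of these sums. The wider spread of the hosts in siControl Ps came from the same libraries as for Snhg1 and Snhg12, since replicates 1 and 2 were above replicates 3 and 4.

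The same comparison in Apc knockdown cells gave 11 small RNAs lower in Ps (6 box H/ACA and 5 box C/D), Snord104 and Snora7a higher, and 14 not called, with a median of -0.84. Among all genes 29.8% were higher and 30.9% lower, with a median of 0.01 over all and 0.20 over those with a mean below 1. Of the 16 small RNAs that passed the cutoff in both fractions 5 were lower and 2 higher, with a median of -0.5. Snora31, among those lower, passed in Ps through siControl libraries alone. Of the hosts 8 were higher, Snhg3 was lower and Snhg12 was not called, with a median of 0.70.

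Snord35b and Snord37, both listed through CB alone, had the largest differences in siAPC. Snord35b had 8, 9, 8 and 7 reads in CB and 1, 1, 1 and 0 in Ps (-2.65 ± 0.63, adjusted p = 0.00137), and the ratio of 3 to 32 summed reads was 0.111 with an exact 95% binomial interval of 0.0220 to 0.355. Snord37 had 9, 5, 12 and 7 reads in CB and 1, 0, 3 and 1 in Ps (-2.32 ± 0.60, adjusted p = 0.00249). Snord49a (-1.99 ± 0.44), Snora34 (-1.65 ± 0.26) and Snora16a (-1.61 ± 0.49) were lower as well, with adjusted p of 0.000702, 2.2e-05 and 0.00805, and of these Snord49a was listed through both fractions.

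Snora31 had 16, 12, 10 and 15 reads in siAPC CB and 4, 4, 2 and 2 in siAPC Ps, without overlap (-1.77 ± 0.34, adjusted p = 0.000213). Snora73b (-0.86 ± 0.25), Snord83b (-0.84 ± 0.25) and Snord100 (-0.92 ± 0.32) were lower by less, with adjusted p of 0.00676, 0.00698 and 0.0177, and Snora73a was lower by -1.37 ± 0.50 (adjusted p = 0.0223). Without 1 library the calls of Snord100 (siAPC CB replicates 2 and 4 and siAPC Ps replicate 3, adjusted p of 0.0623, 0.0698 and 0.0791) and Snora73a (siAPC CB replicates 1 and 4 and siAPC Ps replicate 2, adjusted p of 0.0610, 0.0685 and 0.0624) were lost. Snora68 (-0.35 ± 0.35), Snora24 (-0.94 ± 0.46) and Snora41 (-0.59 ± 0.49) were not called. Snora24 was called lower with voom weights (adjusted p = 0.0343), total-read scaling (0.0487), without siControl Ps replicate 4 (0.0178) and without siAPC Ps replicate 1 (0.0467).

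Snora7a was higher in Ps here, with 25, 20, 28 and 22 reads in siAPC CB and 32, 30, 39 and 41 in siAPC Ps (0.82 ± 0.26, adjusted p = 0.0119), and the groups did not overlap. Snord104 had 161, 141, 161 and 156 reads against 228, 202, 265 and 239 (0.83 ± 0.11, adjusted p = 4.06e-06), also without overlap. Rnu1a1 (0.61 ± 0.53) and Rnu3a (0.64 ± 0.65) were not called in siAPC.

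Gas5 had 2664, 2392, 2045 and 1919 reads in siAPC CB and 6601, 6927, 7069 and 5558 in siAPC Ps (1.79 ± 0.14, adjusted p = 3.17e-09). Snhg6 (0.99 ± 0.14), Snhg4 (0.94 ± 0.13), Snhg18 (0.76 ± 0.06), Snhg1 (0.65 ± 0.18), Snhg7 (0.56 ± 0.16) and Snhg5 (0.56 ± 0.20) were higher in Ps, with adjusted p from 1.15e-08 for Snhg18 to 0.0228 for Snhg5. Snhg9 had 6, 6, 6 and 10 reads in CB and 15, 26, 18 and 28 in Ps (1.80 ± 0.45, adjusted p = 0.00181), without overlap. The opposite-strand transcript Snhg7os was higher on 0 to 9 reads (1.81 ± 0.64, adjusted p = 0.0191), a call lost without siAPC CB replicate 2, which had 0 reads (adjusted p = 0.0767). Snhg12 differed by 0.43 ± 0.21 (adjusted p = 0.0807), and in the fit with replicate number as a block, where same-numbered Ps and CB libraries of siAPC were paired, its adjusted p was 0.00331. Snhg3 was lower by -0.50 ± 0.16 (adjusted p = 0.0135), and this call was lost without siAPC Ps replicate 3 (adjusted p = 0.0649), as that of Snhg5 was without siAPC CB replicate 3 or siAPC Ps replicates 1 or 2 (adjusted p of 0.0554, 0.0728 and 0.0848). The call of Snhg5 was also lost with total-read scaling (0.41, adjusted p = 0.102) and with the 4 GC-trend libraries left out (adjusted p = 0.0623).

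In the pairs, the small RNA was below its host in 23 of 23 in siAPC as well, by a median of 1.63 and between 0.36 and 3.72 log2 units. Of the 15 hosts that were not members 12 were higher in Ps, beside 29.8% of all genes.

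The next question was whether the Ps/CB ratio of any member depended on the siRNA, written log2(Diff FC) for siAPC minus siControl. By limma 0 of the 27 small RNAs and 0 of the 10 hosts passed an adjusted p below 0.05, where 0% of all genes were called higher and 0.0231% lower. At an unadjusted p below 0.05 Snord72 was above 0 (1.31 ± 0.48), Snora31 below it (-1.61 ± 0.49) and Snhg3 above it (0.57 ± 0.23), each with an adjusted p of 0.981. Of the 27 small RNAs 19 had a value above 0 and 8 below, with a median of 0.27. Among all genes 6648 were above 0 and 6367 below, with a median of 0.005. Over the genes with a mean below 1 log2 CPM these numbers were 1497 and 1226, with a median of 0.068. Scaling to total listed reads moved the median of all genes by 0.14 in this comparison. The numbers of small RNAs called lower, 16 and 11, were not compared by a test of their own. For Gas5 the log2(Diff FC) was -0.22 ± 0.19 (adjusted p = 0.981).

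The last comparisons asked which levels differed between siRNAs within a fraction. In CB 0 of the 27 small RNAs were called, where 7.52% of all genes were higher and 5.87% lower with siAPC, and at an unadjusted p below 0.05 Rnu1a1 (1.58 ± 0.53) and Snora2b (0.92 ± 0.34) were higher, with adjusted p of 0.0534 and 0.0843. In Ps Snora31 was lower and the other 26 were not called, where 10.7% of all genes were higher and 11.2% lower. At an unadjusted p below 0.05 in limma, 4 were higher with siAPC in Ps. These were Snora41 (1.22 ± 0.49), Snord65 (1.12 ± 0.46), Snord72 (0.77 ± 0.34) and Snora7a (0.69 ± 0.26), with adjusted p of 0.0849, 0.0927, 0.113 and 0.0698. Snora31 had 6, 6, 8 and 9 reads in siControl Ps and 4, 4, 2 and 2 in siAPC Ps, and the scaled groups did not overlap (-1.48 ± 0.34, adjusted p = 0.00415). In CB the same RNA differed by 0.14 ± 0.34 (adjusted p = 0.844). Without 1 library some others were called higher with siAPC. In Ps these were Snora7a (adjusted p = 0.00580) and Snord72 (0.0498) without siControl Ps replicate 2, Snord72 without siAPC Ps replicate 2 (0.0269) and Snord65 without siControl Ps replicate 3 (0.0425). In CB Rnu1a1 was called without siControl CB replicates 1 or 2, siControl Ps replicate 1 or siAPC Ps replicate 3 (0.0270 to 0.0489).

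Gas5 was the host that changed in both fractions. It was lower with siAPC by -0.62 ± 0.14 in CB (adjusted p = 0.00456) and by -0.83 ± 0.14 in Ps (adjusted p = 0.000196), and in neither fraction did the 4 siAPC libraries overlap the 4 siControl libraries. Snhg18 was higher with siAPC in CB by 0.20 ± 0.06 (adjusted p = 0.0449) and differed by 0.18 ± 0.06 in Ps (adjusted p = 0.0572). With total-read scaling the Ps value of Snhg18 was 0.34 ± 0.05 and was called (adjusted p = 6.63e-05), as it was without siControl CB replicate 3 or siControl Ps replicate 1 (adjusted p of 0.0209 and 0.0298). Snhg4 had differences of -0.31 ± 0.13 in either fraction (adjusted p = 0.136 in CB and 0.106 in Ps), and by limma none of the other 7 hosts was called in CB or Ps. Without siControl Ps replicate 4 Snhg4 was called lower in Ps (-0.45, adjusted p = 0.0130). Without siAPC Ps replicate 3 Snhg3 was called higher (0.47, adjusted p = 0.0417). Of the 4 Snhg genes under older symbols, Snhg20 (2810008D09Rik) was higher with siAPC in Ps by 0.62 ± 0.13 (adjusted p = 0.00127), without overlap, and the others were not called in either fraction. Its log2(Diff FC) was 0.88 ± 0.18 (adjusted p = 0.145). The call of Snhg18 in CB was lost without any 1 of siControl CB replicates 1, 3 and 4, siControl Ps replicates 3 and 4, the 4 siAPC CB libraries or siAPC Ps replicates 1 and 3, with adjusted p of 0.0502 to 0.143.

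**Figure D4:**
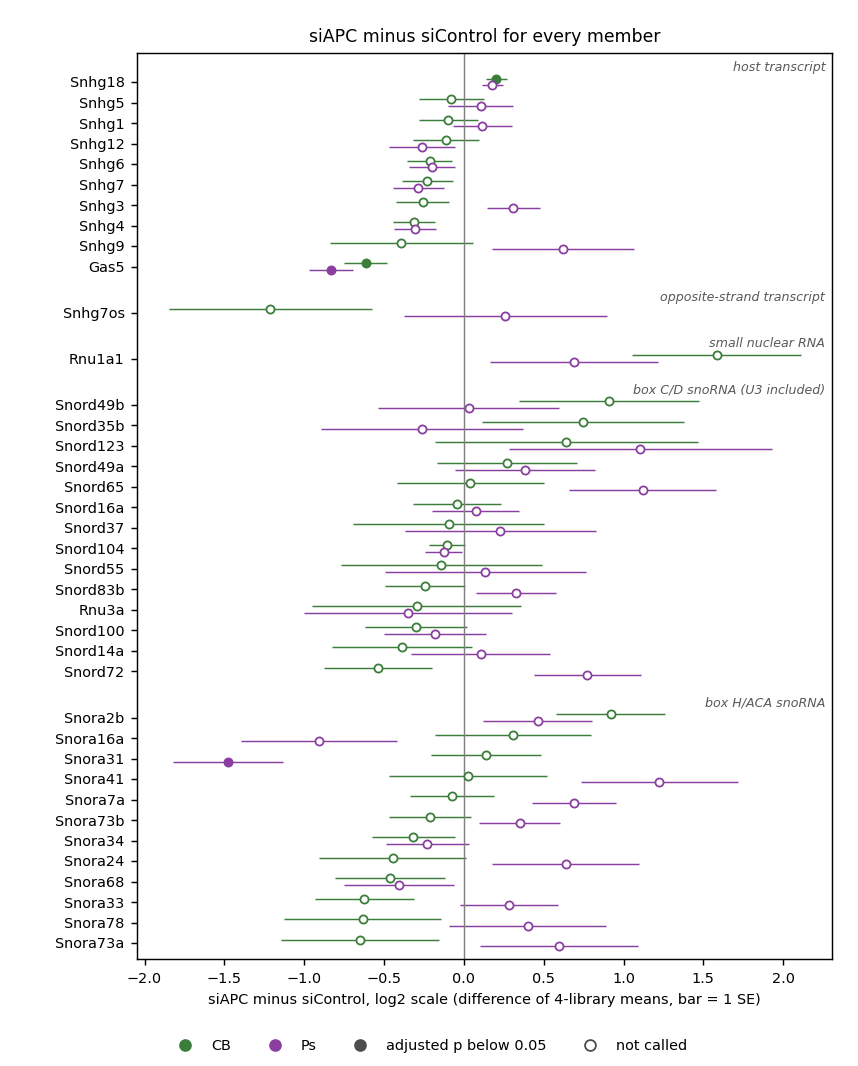
siAPC minus siControl on the log2 scale (x axis) for the 38 members (y axis) in CB and in Ps, as the difference between means of 4 libraries with a bar of 1 SE; filled points had an adjusted p below 0.05. Gas5 is filled in both fractions, at -0.62 and -0.83, Snhg18 in CB and Snora31 in Ps, and the other points are open.

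Gas5 had company among the coding and noncoding hosts that were not members. In Ps 12 of these 15 were lower with siAPC, beside 11.2% of all genes, among them 2410006H16Rik (-0.72, adjusted p = 0.00125), Rpl4 (-0.52, adjusted p = 0.000281) and Eef2 (-0.45, adjusted p = 0.00579). In CB 4 were lower, beside 5.87% of all genes, among them Rpl4 (-0.43, adjusted p = 0.00285) and Eef1b2 (-0.27, adjusted p = 0.0298). The small RNAs inside 2410006H16Rik, Snord49a, Snord49b and Snord65, had Ps differences of 0.38, 0.03 and 1.12, none of them called. Scaling to total listed reads moved the median of all genes by 0.16 in Ps, and the difference of each host is relative to that.

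Levels of hosts were set beside each other per length, as log2 CPM per kilobase of all annotated exons, retained introns included. These exons cover the whole gene for Snhg1 (2969 bases) and Snhg12 (2402 bases) and 3760 of 4118 bases for Gas5, but 1486 of 4098 for Snhg18. The divisor is thus not the spliced length, and the order below depends on that annotation. In siControl CB the order was Snhg18 (5.79 ± 0.12, SD, n = 4), Gas5 (5.55 ± 0.08), Snhg6 (4.01 ± 0.12), Snhg1 (3.87 ± 0.13), Snhg12 (3.57 ± 0.28), Snhg3 (3.01 ± 0.18), Snhg5 (2.54 ± 0.10) and Snhg9 (1.43 ± 0.98), and Snhg6 and Snhg1 lay within their spread of each other. In siControl Ps Gas5 led (7.55 ± 0.39) over Snhg18 (6.58 ± 0.08), while Snhg3 (1.94 ± 0.19) and Snhg9 (2.22 ± 0.71) were the lowest and within their spread. With siAPC Gas5 (6.72 ± 0.20) and Snhg18 (6.76 ± 0.08) differed by less than their SD in Ps. Exon lengths were those of GENCODE M21, in which Snhg7 and Snhg4 had no match.

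The proteins that act on these RNAs were followed by their messages, in a comparison where 29.1% of all genes were higher and 31.2% lower in Ps of siControl. Of the 4 core proteins of box C/D particles, fibrillarin (Fbl, 0.82) and Nhp2l1 (0.47), an older symbol of Snu13, were higher in Ps of siControl, and Nop56 and Nop58 were not called. All 4 core proteins of box H/ACA particles were higher, with dyskerin (Dkc1) at 1.02, Nop10 at 0.82, Nhp2 at 0.68 and Gar1 at 0.47. Of 12 assembly and trafficking factors 6 were higher, such as Znhit6 (0.86) and Nufip1 (0.48), and 2 lower, the Cajal body factors Coil (-0.36) and Wrap53 (-0.53). Of 10 Sm and U1 proteins 8 were higher, led by Snrpg (1.41), with Snrpf at 0.90 and Snrpd2 at 0.86.

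Factors that release snoRNAs from introns were split, since the 5′ exonuclease Xrn2 (0.54) and Parn (0.19) were higher and the debranching enzyme Dbr1 (-0.35) and the exosome subunit Exosc10 (-0.24) lower in Ps of siControl. Of 10 factors of nonsense-mediated decay, the pathway that degrades many host transcripts, 6 were lower (31.2% of all genes were), among them the helicase Upf1 (-1.28), and Upf3a was higher (1.33). In siAPC, where 29.8% of all genes were higher and 30.9% lower, the counts were 2 higher of 4 for the box C/D core, 3 of 4 for the box H/ACA core, 5 higher and 2 lower of 12 assembly factors, 6 higher of 10 Sm and U1 proteins, and 2 higher and 6 lower of 10 decay factors. With siAPC against siControl in Ps, 10.7% of all genes were higher and 11.2% lower. There Fbl (-0.36), Nhp2l1 (-0.23) and the H/ACA assembly factor Naf1 (-0.30) were lower. So were 3 Sm and U1 proteins and 1 factor of snoRNA release, while 2 decay factors were higher and 1 lower. In CB, where 7.52% of all genes were higher and 5.87% lower, Naf1 (-0.44) and Parn (-0.23) were lower. No other gene of these lists was called in CB.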

How the data were processed

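RNA of 16 NIH/3T3 libraries was sequenced as paired reads. According to the submitters' processing notes the reads were demultiplexed with bcl2fastq 1.8.4, aligned to mm10 with STAR 2.4.2a and normalized with limma 3.26.1; the methods name Rsubread for counting per gene on a GENCODE annotation. The deposited values are log2 CPM from the authors' limma-voom run, where CPM is reads plus 0.5 over an effective library size. Inverting this formula gave whole reads, within 0.01 of a read, for 100% of 208240 values. Each gene of the table passed 0.5 CPM, taken over listed reads, in 1 library or more. The methods state the cutoff as a log CPM above 0.5. The lowest maximum of any listed gene was 0.512 CPM, so 0.5 CPM was used here. The scaling between libraries ran from 0.801 to 1.15. Intervals and the floor of 3 reads cover counting error only.

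Groups came from the labels for fraction and siRNA. The test was limma 3.58.1 (R 4.3.3; lmFit, then eBayes with trend) fitted to the deposited log2 values, 16 libraries together, 1 mean per group and no block, with Benjamini-Hochberg adjustment over 13015 genes and a call at an adjusted p below 0.05. Medians, counts and pairs over the members are descriptions, as are the SD over 4 libraries and the standard error (SE) of a contrast. Members and gene lists were chosen with earlier results of these data known. Named were every host and Rnu gene, of the Snora and Snord genes the 6 with the most reads and the 6 largest called differences of each comparison, Apc, and list genes that passed; other small RNAs were named after their values were seen. Positions, hosts and sequences came from GENCODE M21 (GRCm38), which placed 36 members, and from RefSeq GRCm38.p6 for Snhg7, Snhg4 and host starts; the authors counted on an earlier GENCODE release.

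The labels give replicate numbers 1 to 4 in each group, without saying what they share. Over 10292 genes, deviations of same-numbered libraries correlated at 0.416 to 0.617 between Ps and CB of siAPC and at 0.162 to 0.551 between siAPC and siControl in Ps, so these were taken as paired; the blocked value is given where it changed a call. The alternatives were that block, voom weights, a prior without trend, total-read scaling, an offset of 2 reads, a minimum mean of 1 log2 CPM, a fold change above 2, and leaving out each library or 4 libraries. Restricting the small RNAs to those past the cutoff in both fractions, in libraries of either siRNA, was added after seeing the data.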

Additional observations from a re-analysis of the deposited data

Results flagged for a closer look

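In each group of 4 libraries, a value whose distance from its nearest neighbour took up most of the group's range was marked. Of 152 groups of the members 9 were marked, and chance marks about 1 in 20. Values are log2 CPM. At the low end, Snora41 in siControl Ps replicate 1 was at -4.637 with 0 reads, where the others had 2 to 3, Snord123 in siControl CB replicate 2 was at -5.088 with 0 reads, where the others had 8 to 13, and Snora78 in siAPC CB replicate 4 was at -1.966 with 4 reads, where each of the others had 10. At the high end, Snord37 in siControl CB replicate 4 was at -0.457 with 13 reads against 6 to 9, Snora7a in siAPC Ps replicate 4 was at 1.333 against 1.036 to 1.053, and Snhg9 in siAPC CB replicate 4 was at -0.744 with 10 reads against 6 in each of the others. Among the deeper hosts, Snhg3 in siControl Ps replicate 2 was at 2.208 against 1.806 to 1.845, and Snhg18 was at 6.189 in siControl CB replicate 3 against 6.409 to 6.449 and at 7.267 in siControl Ps replicate 1 against 7.095 to 7.124.

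Snora78 was marked because its siAPC minus siControl difference was negative for all 4 replicate numbers in CB and positive for all 4 in Ps. The difference of these differences was 1.034 on the log2 scale, with an adjusted p of 0.981 in limma, on 1 to 14 reads per library. In CB same-numbered libraries of the siRNAs correlated at -0.034 on average and were not taken as paired. The 4 matching signs there are thus not 4 paired differences.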

How the results depend on the processing

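Of 195 results for single genes 57 were called, and over 4345 recalculations 85 lost a call, 40 gained a call and 0 reversed; 17 of the 57 lost the call in at least 1 of these and 15 without 1 library. The rule of a fold change above 2 is not among these and would end 25 of the 57 calls. For Ps against CB, requiring a mean of at least 1 log2 CPM leaves Snord104 as the only small RNA, so 1 was higher and 0 lower in either siRNA and the medians became 0.857 and 0.834, with 0 lower in Ps against siControl Ps and a median of -0.128. A fold change above 2 left 1 small RNA and 1 host higher in siControl, and 0 small RNAs higher, 2 hosts higher and 0 lower in siAPC, and 0 hosts between siRNAs in CB and Ps. Total-read scaling gave medians of -1.72 (small RNAs) and 0.405 (4 hosts higher) in siControl and 0.549 (hosts) in siAPC, and 1 small RNA higher with siAPC in CB, 1 in Ps and 1 host in Ps. The offset of 2 reads gave a small RNA median of -0.921 in siControl and ended the calls of Snord35b, Snord14a and Snora2b. Without the 4 libraries with a GC trend, 1 small RNA was higher and the host median was 0.409 in siControl, 2 small RNAs and 1 host were higher with siAPC in Ps, and 0 hosts in CB. Those 4 left out, the calls of Rnu1a1, Snord14a, Snora2b, Snhg12 and Snhg1 in siControl, of Snhg5 and Snhg7os in siAPC and of Snhg18 in CB were lost. Voom weights called 2 small RNAs and the prior without trend 1 higher with siAPC in CB, the latter with 0 hosts. Small RNAs past the cutoff in both fractions, in libraries of either siRNA, gave 9 lower in siControl, and 5 lower with a median of -0.5 in siAPC.

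With the replicate block, where numbers pair libraries, Snhg12 was gained in siAPC; of the comparisons whose numbers share no pairing (correlations -0.336 to 0.432, with 1 and 2 of the 4 numbers best with their own), CB between siRNAs went to 1 small RNA (Rnu1a1) and 0 hosts higher, Snord35b and Snora2b were lost and Snord55 gained in siControl, and the block changed no other call.

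Leaving out each library in turn gave, for Ps against CB, 1 to 2 small RNAs higher and 12 to 16 lower in siControl with 5 to 8 hosts higher and 1 lower, and 2 to 3 higher and 9 to 12 lower in siAPC with 7 to 9 hosts higher and 0 to 1 lower. The medians ran from -1.42 to -1.06 and -0.932 to -0.625 for small RNAs and from 0.509 to 0.785 and 0.654 to 0.743 for hosts. Between siRNAs, 0 to 1 small RNA and 0 to 1 host were higher in CB with 1 host lower, and 0 to 2 small RNAs and 0 to 1 host were higher in Ps with 1 small RNA and 1 to 2 hosts lower; medians ran from -0.212 to 0.006 and 0.161 to 0.397 for small RNAs and from -0.254 to -0.146 and -0.215 to 0.076 for hosts. The causes of these shifts were not tested beyond the construction of each alternative. Depth limits the small RNAs, where 26 of 27 stayed under 100 reads in every library.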
